A study of Mus musculus with 40 samples.

Results

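Hippocampal gene expression was compared between 3 female mice in which deleted H2A.Z was replaced with an acetyl-mimic mutant (H2A.Z.1 KQ, mice 17, 37 and 38) and 4 female mice with the deletion alone (H2A.Z KO, mice 13, 14, 33 and 34). These 7 mice were taken by their sample titles from the 40 mice of an RNA-seq study of H2A.Z deletion and replacement, with 1 library per mouse. H2A.Z KO mice were floxed for H2A.Z.1 and H2A.Z.2 and received, by stereotaxic injection into the hippocampus, an AAV that expresses Cre from the synapsin promoter of neurons and a second virus for the 3xMyc tag. The sample labels call this genotype KD. H2A.Z.1 KQ mice received the same Cre together with 3xMyc-tagged H2A.Z.1 whose N-terminal lysines were changed to glutamine, joined to GFP through a p2A peptide and driven by the CMV promoter, which is not restricted to neurons. Both groups therefore carried the deletion, viral injection and the Myc tag, and only the KQ mice carried viral H2A.Z.1. The replaced protein is H2A.Z.1 alone, while both H2A.Z.1 and H2A.Z.2 were deleted. For reference, female mice with the Myc tag and no Cre (Myc, n = 3), with wild-type H2A.Z.1 (H2A.Z.1 WT, n = 4) or with lysines changed to alanine (H2A.Z.1 KA, n = 4), and male H2A.Z KO (n = 4) and H2A.Z.1 KQ mice (n = 5), were used. The study describes all mice as floxed, whereas the labels give the Myc mice a WT genotype, so a value against Myc may also compare genotypes. The ages of the mice were not given in the sources used here.

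H2A.Z is a variant of histone H2A that is placed into nucleosomes near transcription start sites and enhancers by the SRCAP and p400 complexes. Acetylation of the lysines in its N-terminal tail is a mark of active promoters, and glutamine resembles an acetylated lysine because it lacks the positive charge. In the hippocampus H2A.Z is known as a regulator of memory-related transcription. The injected tissue also holds microglia, astrocytes and vessels, which answer to injury and to interferon with their own gene programmes.

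Total counts per library were 31547523 to 42928073 (median 34971645) in KO and 38303901 to 40245169 (median 38504254) in KQ females. Levels are given as CPM, the counts of a gene relative to the library total after TMM scaling. A gene was called when its adjusted p was under 0.05 in edgeR's quasi-likelihood test with Benjamini-Hochberg adjustment over 28449 genes. SE stands for the error of a log2 fold change in that fit. Nothing in the labels states litters or batches, so each mouse was treated as a separate sample. The p-values rest on a spread between mice that was estimated over all 40 mice in 10 groups, and not over these 7 alone. Hippocampal neurons were present in all 7 libraries. Prox1, a marker of dentate granule cells, lay at 111 to 153 CPM in KO and 148 to 168 CPM in KQ mice, and Slc17a7, the vesicular transporter of glutamatergic neurons, at 361 to 682 and 433 to 767 CPM. The targeted gene H2az1 stood at 28.1, 29.2, 30.3 and 36.3 CPM in KO mice 13, 14, 33 and 34 and at 38, 48.3 and 39.8 CPM in KQ mice 17, 37 and 38, a log2 difference of 0.44 (SE 0.17, adjusted p = 0.0865). The groups did not overlap, but the difference did not pass the test. Its counts include any reads from the viral coding sequence, and KO mice overlapped with the Myc mice (28.1 to 34.5 CPM). Without Myc mouse 32, KO mice differed from Myc mice in H2az1 by -0.147 on the log2 scale (edgeR adjusted p = 0.617). These counts, summed over all cells and exons, therefore do not show the deletion. H2az2 was at 26.2 to 30 CPM in KO and 21 to 25.8 CPM in KQ mice (log2 difference -0.24, SE 0.11, adjusted p = 0.171). Without Myc mouse 32, KO mice differed from Myc mice in H2az2 by 0.163 on the log2 scale (edgeR adjusted p = 0.355). These counts therefore do not show its deletion either. The study's own mRNA measurements gave lower H2az1 in mice with Cre alone and lower H2az2 in all groups with Cre. They also gave higher H2az1 in the WT, KA and KQ groups than in Myc controls. In cultured hippocampal neurons of floxed mice the study reports a strong reduction of H2A.Z by Cre.

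Between KQ and KO females, 1524 genes were higher (5.36% of the genes tested) and 2170 were lower (7.63%) in KQ mice. The fold changes of genes that were lower were the larger ones, with a median log2 fold change of -0.96 against 0.49 for genes that were higher. At an absolute log2 fold change over 1, 257 genes were higher (0.903%) and 1033 lower (3.63%). In 5500 of the 28449 genes tested the KQ and KO mice did not overlap, so such separation in a single gene is common here. In KQ mice 52 of 53 interferon-response genes, 21 of 21 MHC class I genes and 12 of 15 markers of homeostatic microglia were lower, and 15 of 57 potassium channel genes and 12 of 42 genes of vesicle release were higher. The count depended on the mice. Without KQ mouse 37 there were 494 higher and 549 lower genes, without KQ mouse 38 832 and 990, without KO mouse 13 716 and 1285, and without KO mouse 14 766 and 1467. When the spread was estimated from the 7 mice alone, 114 were higher and 211 lower. In bulk tissue, fewer cells of a type and less RNA per cell cannot be told apart.

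**Figure D1:**
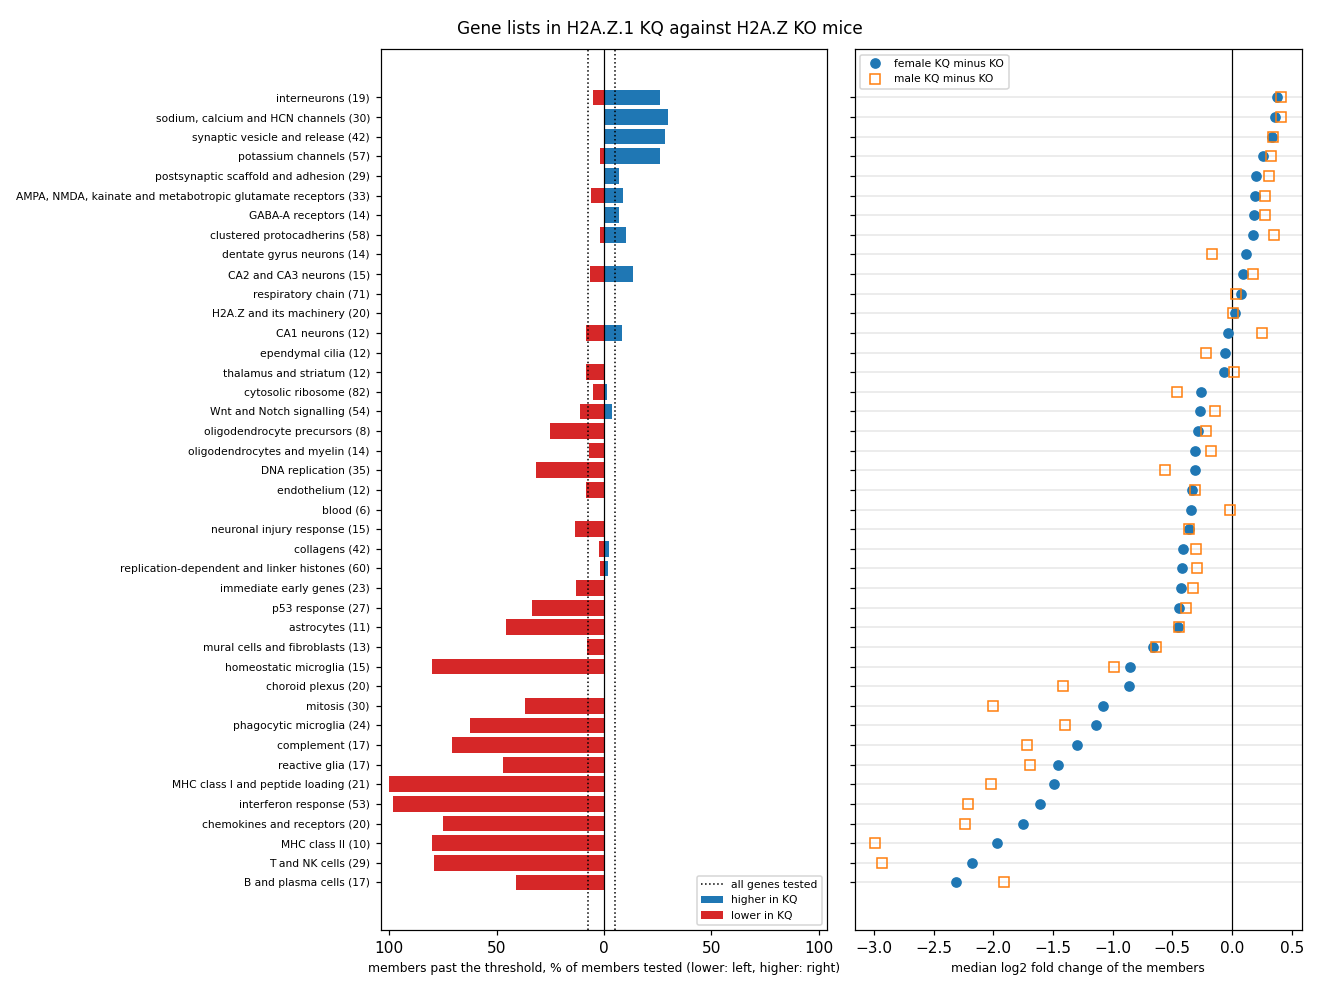
Gene lists with their number of members tested in brackets. The left panel gives the percent of members that were lower (red, to the left) or higher (blue, to the right) in female H2A.Z.1 KQ than in H2A.Z KO mice at an adjusted p under 0.05, with dotted lines at the percent over all genes tested, and the right panel the median log2 fold change of the members in females (filled circles) and males (open squares). Immune lists lie at the bottom with medians down to -2.31 (B and plasma cells), and lists of interneurons, channels and vesicle release at the top with medians up to 0.38.

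The genes with the smallest p-values belonged to none of the immune or synaptic lists. The genes of this paragraph were chosen after their values were seen, except Plaat1, Drd2 and Akr1c18, which an earlier analysis of these libraries had pointed to, and Dach2, which the naming rule gives. Wdr17, a WD-repeat protein gene on chromosome 8 (GRCm39, 55081860 to 55340219), stood at 8.62, 9.55, 11.1 and 12.1 CPM in KO mice 13, 14, 33 and 34 and at 21.4, 24.6 and 25.8 CPM in KQ mice 17, 37 and 38. Every KQ mouse was above every KO mouse, and the log2 fold change was 1.21 (SE 0.10, adjusted p = 6.87e-10). Myc mice lay higher still, at 30.9 to 37.8 CPM, and KQ remained below Myc (log2 fold change -0.56, adjusted p = 0.00305). Tubg2, which encodes a gamma-tubulin of microtubule nucleation, was at 11.6, 13.7, 15.6 and 15.6 CPM in KO and 28.1, 33.3 and 28.8 CPM in KQ mice (log2 fold change 1.09, SE 0.12, adjusted p = 3.38e-07). Zfp941, a zinc-finger gene, was at 5.04, 4.75, 6.94 and 7.33 CPM in KO and 19.1, 20.9 and 22.9 CPM in KQ mice (log2 fold change 1.80, SE 0.22, adjusted p = 2.09e-06). In both genes the KQ range fell close to that of Myc mice, 31.9 to 34.9 CPM for Tubg2 and 14.6 to 24.7 CPM for Zfp941, and neither difference from Myc passed the test (adjusted p = 0.548 and 0.64). Plaat1, a phospholipid acyltransferase gene, was also higher in KQ mice (log2 fold change 1.17, SE 0.14, adjusted p = 2.09e-06). Akr1c18, which encodes the enzyme that inactivates progesterone, had 0.215 to 0.545 CPM in KO, 1.51 to 1.91 CPM in KQ and 3.49 to 4.67 CPM in Myc mice (KQ against KO log2 fold change 2.05, SE 0.37, adjusted p = 0.000465). Drd2, the D2 dopamine receptor gene, was at 0.545 to 0.864 CPM in KO and 1.49 to 1.79 CPM in KQ mice (log2 fold change 1.28, SE 0.26, adjusted p = 0.00129), a call that was lost when only mice 13, 14 and 17 were used. Rnd3, which encodes a small GTPase that opposes actin contraction, went the other way, with 38.8, 38.6, 34.1 and 34.3 CPM in KO and 19.1, 16.9 and 21.3 CPM in KQ mice. Its log2 fold change was -0.93 (SE 0.12, adjusted p = 4.07e-06), and Myc mice had 18.5 to 21.5 CPM. The calls of Wdr17, Tubg2, Zfp941, Plaat1, Akr1c18 and Rnd3 held under all 17 alternative settings and left-out mice.

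Dach2, a transcriptional cofactor gene of the X chromosome (112207186 to 112746083), stood apart from these because Myc and KO mice had the same low level. It had 1.02, 1.47, 1.02 and 1.47 CPM in KO mice and 18.4, 9.58 and 9.28 CPM in KQ mice, against 0.468 to 1.69 CPM in Myc mice. KQ mice were above both groups, by a log2 change of 3.31 over KO (SE 0.50, adjusted p = 7.84e-05) and 3.41 over Myc (adjusted p = 0.00114), and the second value was 3.07 (adjusted p = 0.0145) without Myc mouse 32. The level was 4.09 to 9.31 CPM in WT and 6.81 to 12.4 CPM in KA females, and the difference of KQ from either did not pass the test (log2 difference 0.75, SE 0.46, and 0.42, SE 0.46, adjusted p = 1 for both). In males Dach2 was at 0.257 to 1.05 CPM in KO and 5.25 to 19.2 CPM in KQ mice (log2 fold change 3.66, adjusted p = 2.32e-06). Of the other genes found after their values were seen, the predicted gene Gm10432 had 2.29 to 3.49 CPM in KO, 6.74 to 9.67 CPM in KQ and 1.9 to 3.28 CPM in Myc mice. Its log2 fold change was 1.63 over KO (adjusted p = 5.71e-05) and 1.63 over Myc (adjusted p = 0.00109). B3glct, a glucosyltransferase gene of protein O-fucose modification, had 16.8 to 19.2 CPM in KO, 10.6 to 13.8 CPM in KQ and 17.7 to 22.8 CPM in Myc mice, with log2 fold changes of -0.57 (adjusted p = 0.000761) and -0.72 (adjusted p = 0.000609). Against KO, the B3glct call was lost (adjusted p = 0.0503) when the spread was estimated from the 7 mice alone.

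**Figure D2:**
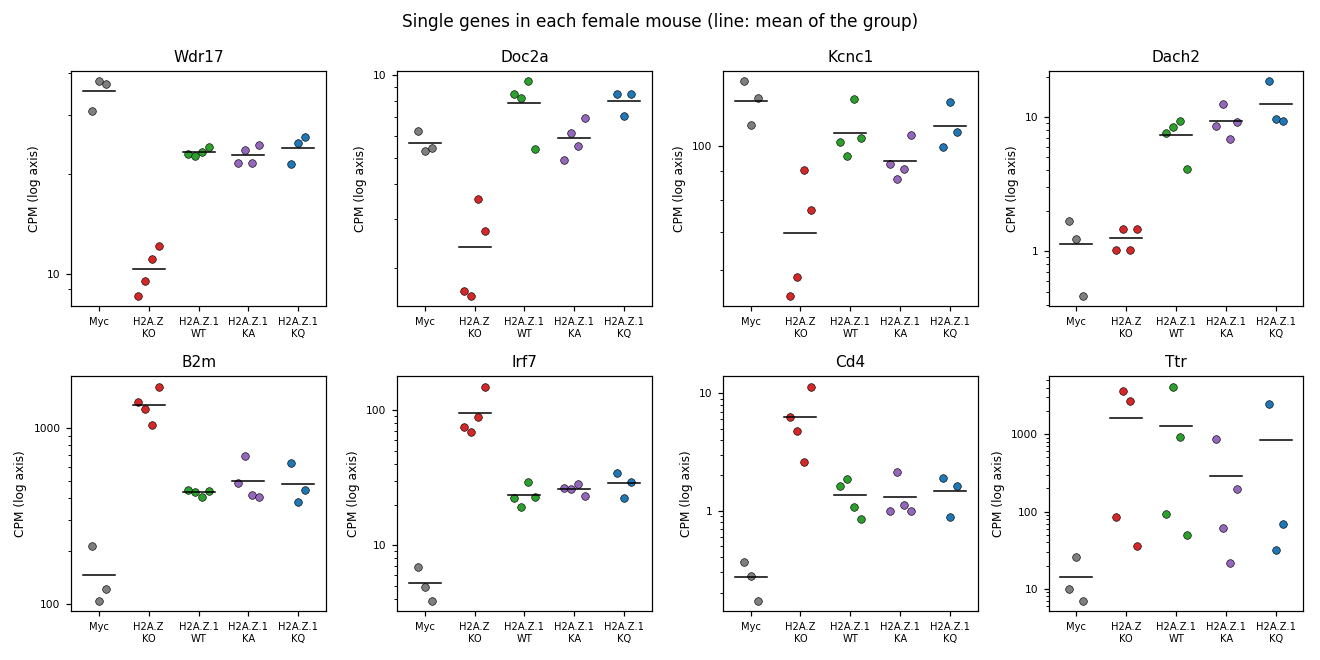
CPM of 8 genes in each female mouse on a log axis, 1 point per mouse and a line at the mean, for Myc and KO mice and for the groups with WT, KA or KQ replacement. KO mice are set apart from KQ mice in Wdr17, Doc2a, Kcnc1, Dach2, B2m, Irf7 and Cd4, Dach2 is low in both Myc (up to 1.69 CPM) and KO mice, and Ttr spans the range from 21.7 to 4100 CPM among mice with Cre.

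Genes of antigen presentation were lower in KQ than in KO mice. All 21 members tested of the list of MHC class I and peptide loading were lower (median log2 fold change -1.49, against 0 over all genes tested), and 8 of 10 MHC class II genes (median -1.97). Of all genes tested, 7.63% were lower. B2m, the invariant subunit of class I molecules, stood at 1410, 1280, 1040 and 1720 CPM in KO mice 13, 14, 33 and 34 and at 632, 380 and 443 CPM in KQ mice 17, 37 and 38. The groups did not overlap, with a log2 change of -1.49 (SE 0.33, adjusted p = 0.0032) that passed under all 17 alternatives, and KQ mice stayed above the 105 to 214 CPM of Myc mice (log2 fold change 1.72, adjusted p = 0.00403). Tap2, a subunit of the transporter that carries peptides to MHC class I, was at 36.6 to 85 CPM in KO and 14.5 to 23 CPM in KQ mice (log2 fold change -1.59, SE 0.32, adjusted p = 0.00179). Ciita, the transactivator of MHC class II genes, had 8.67, 7.61, 6.79 and 19 CPM in KO and 4.75, 2.89 and 3.3 CPM in KQ mice (log2 fold change -1.52, SE 0.38, adjusted p = 0.00695). KO mouse 34 was the highest, and no KO mouse fell within the KQ range. The MHC class II genes that did not pass were Cd74, the invariant chain, at 326 to 1100 and 74 to 236 CPM (log2 fold change -2.34, SE 0.83, adjusted p = 0.0608), and H2-Aa at 143 to 495 and 30.3 to 108 CPM (log2 fold change -2.28, SE 0.83, adjusted p = 0.0668). MHC class I genes are near-identical copies that can share reads, so members of that list are not independent.

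Interferon-response genes showed the same direction. Of 53 members tested, 52 were lower in KQ mice (median log2 fold change -1.61), and Ifi27, at 101 to 117 CPM in KO and 65.7 to 83.9 CPM in KQ mice, did not pass (log2 fold change -0.54, adjusted p = 0.12). Of all genes tested, 7.63% were lower. Irf7, the transcription factor that amplifies type I interferon, was at 75.1, 69.2, 88.3 and 149 CPM in KO and 34, 22.5 and 29.4 CPM in KQ mice. Its log2 fold change was -1.74 (SE 0.41, adjusted p = 0.0056), and Myc mice had 3.87 to 6.84 CPM. Trim25, a ubiquitin ligase of RNA sensing, had the smallest p of the list, with 31.9, 28.6, 26.2 and 37 CPM in KO and 17.7, 11.5 and 13.1 CPM in KQ mice (log2 fold change -1.13, SE 0.17, adjusted p = 4.55e-05). Mx2, a dynamin-like antiviral GTPase, was at 10.6 to 17.1 CPM in KO and 4.58 to 5.88 CPM in KQ mice (log2 fold change -1.41, SE 0.28, adjusted p = 0.00132). Members of this list with near-identical copies, such as Ifit and Oas genes, are counted with the uncertainty of shared reads.

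Sequences upstream of 3 interferon-response genes are shown because the factors of this response bind known motifs. Each is the 250 bases before the annotated transcription start on GRCm39, written along the strand of the gene, and capitals mark matches to GAAA, any 2 bases and GAAA, the core of the interferon-stimulated response element (ISRE), or TTCNNNGAA, the STAT-binding GAS motif, on either strand. The genes were chosen after their values were seen, and all 3 hold a match, unlike most members of the list. Oas2 encodes an enzyme that activates RNase L, Bst2 (tetherin) a membrane protein that holds back budding virus, and Stat2 a component of the complex that binds the ISRE. The windows are chr5:120887934-120888183 on the minus strand for Oas2, chr8:71990115-71990364 on the minus strand for Bst2 and chr10:128106102-128106351 on the plus strand for Stat2, and no annotated exon overlapped them.
Oas2: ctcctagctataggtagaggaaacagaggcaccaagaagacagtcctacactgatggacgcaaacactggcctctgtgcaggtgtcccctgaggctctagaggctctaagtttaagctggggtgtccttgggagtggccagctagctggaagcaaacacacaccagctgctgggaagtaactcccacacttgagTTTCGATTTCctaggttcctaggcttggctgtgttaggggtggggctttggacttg
Bst2: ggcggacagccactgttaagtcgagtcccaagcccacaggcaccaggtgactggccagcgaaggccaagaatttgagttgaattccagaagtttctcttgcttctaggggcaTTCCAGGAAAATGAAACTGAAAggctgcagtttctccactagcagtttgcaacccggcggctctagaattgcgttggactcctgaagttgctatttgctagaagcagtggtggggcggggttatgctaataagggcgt
Stat2: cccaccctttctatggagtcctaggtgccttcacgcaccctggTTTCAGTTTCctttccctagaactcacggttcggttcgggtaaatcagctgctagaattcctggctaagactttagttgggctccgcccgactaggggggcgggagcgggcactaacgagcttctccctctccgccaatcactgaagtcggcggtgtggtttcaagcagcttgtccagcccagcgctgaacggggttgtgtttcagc
The Oas2 match began 56 bases upstream of the start and the Stat2 match 207 bases upstream. Bst2 held a GAS match 138 bases upstream that ran into the ISRE matches beginning 132 and 126 bases upstream, which overlapped each other. An ISRE match was found in the windows of 23 of 53 interferon-response genes (43.4%), of 108 of 1951 protein-coding genes that were lower in KQ mice (5.54%), of 29 of 1219 that were higher (2.38%) and of 528 of all 16966 protein-coding windows (3.11%). A GAS match was found in 10 of 53 interferon-response genes (18.9%) and in 6.79% of all windows, and 1 of 21 MHC class I genes held an ISRE match (4.76%). A match describes letters in this window and not a bound site. The interferon list was made of genes of this response, and most are among the genes that were lower. Its share therefore says nothing about KQ against KO. Oas2 stood at 24.9, 18.5, 19.4 and 32.1 CPM in KO and 10.2, 6.12 and 7.36 CPM in KQ mice (log2 fold change -1.59, SE 0.36, adjusted p = 0.00401). Bst2 stood at 79.8, 72.7, 80.7 and 128 CPM in KO and 35.9, 23.8 and 29.2 CPM in KQ mice (log2 fold change -1.61, SE 0.39, adjusted p = 0.00688). Stat2 stood at 89.9, 81.3, 100 and 155 CPM in KO and 54.7, 44.9 and 56.7 CPM in KQ mice (log2 fold change -1.03, SE 0.23, adjusted p = 0.00335). In each gene KO mouse 34 was highest and KO and KQ mice did not overlap, as in 5500 of the 28449 genes tested.

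Chemokines, complement and markers of immune cells were lower as well. Of 20 chemokine and receptor genes, 15 were lower (median log2 fold change -1.75), against 7.63% of all genes tested. Cxcl13, the chemokine that attracts B cells, stood at 258, 216, 276 and 689 CPM in KO and 22.8, 3.99 and 59.8 CPM in KQ mice (log2 fold change -3.64, SE 1.0, adjusted p = 0.0192), and the call was lost without KQ mouse 17 or without KQ mouse 37. Of 17 complement genes, 12 were lower (median -1.30). C1qa, a chain of the C1q complex that microglia make, was at 764, 720, 421 and 679 CPM in KO and 348, 190 and 188 CPM in KQ mice (log2 fold change -1.42, SE 0.38, adjusted p = 0.0118), a call that was lost without KQ mouse 37 or 38. Of 29 T and NK cell markers, 23 were lower (median -2.18). Cd3e, the epsilon chain of the T cell receptor complex, had 4.82, 3.55, 2.13 and 13.2 CPM in KO and 1.37, 0.759 and 0.572 CPM in KQ mice (log2 fold change -2.71, SE 0.67, adjusted p = 0.00722). Cd4, the coreceptor of helper T cells that microglia and macrophages can also express, had 6.27, 4.77, 2.62 and 11.4 CPM in KO and 1.89, 0.882 and 1.61 CPM in KQ mice (log2 fold change -2.10, SE 0.60, adjusted p = 0.0175). No KQ mouse reached the lowest KO mouse in either gene, Myc mice had at most 0.338 CPM of Cd3e, and both calls were lost without KQ mouse 37 or 38, that of Cd4 also without KO mouse 34. For B and plasma cells 7 of 17 markers were lower. Their summed level was 4494, 4437, 172 and 583.5 CPM in KO mice 13, 14, 33 and 34. In KQ mice 17, 37 and 38 it was 1064, 564.8 and 67.98 CPM, so the groups overlapped and KO mice 13 and 14 stood apart. Among the genes with the largest negative fold changes, 5 were immunoglobulin variable genes whose KO mean rested on 1 or a few mice, such as Ighv1-22 with 54.3 CPM in mouse 13 and at most 0.245 CPM in mice 14, 33 and 34, and their fold changes are not interpreted.

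Microglial markers were lower by less than these lists. Of 15 markers of homeostatic microglia 12 were lower (median log2 fold change -0.85), and of 24 genes of phagocytic microglia 15 (median -1.14). Selplg, a selectin ligand of microglia, stood at 56.2, 55.8, 46.7 and 63.4 CPM in KO and 33.4, 31.9 and 26.9 CPM in KQ mice (log2 fold change -0.85, SE 0.12, adjusted p = 2.57e-05). Sall1, a transcription factor of microglial identity, was at 51.5, 48, 40.8 and 44.6 CPM in KO and 31.6, 27.8 and 28 CPM in KQ mice (log2 fold change -0.67, SE 0.10, adjusted p = 5.71e-05) and passed under all 17 alternatives. The summed level of the homeostatic list was 1037 to 1597 CPM in KO, 667.1 to 895.3 CPM in KQ and 402.9 to 523 CPM in Myc mice, and that of the T and NK list 124.6 to 368.1, 52.66 to 94.6 and 14.09 to 31.38 CPM. No KQ mouse overlapped with a KO or a Myc mouse in either sum, and the part of these cells in the immune lists was not tested. Other sums did overlap between KO and KQ mice. They were 7070 to 16200 and 4140 to 8030 CPM for phagocytic microglia and 3370 to 8640 and 1880 to 3820 CPM for reactive glia. For astrocytes they were 5950 to 8200 and 5690 to 6210 CPM. Astrocyte genes were lower in 5 of 11 cases, Aldh1l1, Slc1a3 and Gja1 among them (median -0.45), and reactive glial genes in 8 of 17 (median -1.46). Slc1a3, the glial glutamate transporter, was at 1540, 1430, 1080 and 1500 CPM in KO and 827, 731 and 807 CPM in KQ mice (log2 fold change -0.82, SE 0.13, adjusted p = 0.00015), close to the 682 to 734 CPM of Myc mice. Gfap, the intermediate filament of reactive astrocytes, overlapped between the groups at 2330 to 6230 and 1610 to 3040 CPM (log2 fold change -0.80, SE 0.39, adjusted p = 0.183). In oligodendrocytes 1 of 14 genes was lower, the transcription factor gene Sox10 (log2 fold change -0.54, adjusted p = 0.0334, not called without KO mouse 13, KO mouse 14, KQ mouse 37 or KQ mouse 38), and in endothelium 1 of 12, Eng, a coreceptor of TGF-beta ligands. Both shares lay near the 7.63% of all genes tested. The endothelial count was 7 without KO mouse 34, 5 without KQ mouse 17 and 2 without KO mouse 33.

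**Figure D3:**
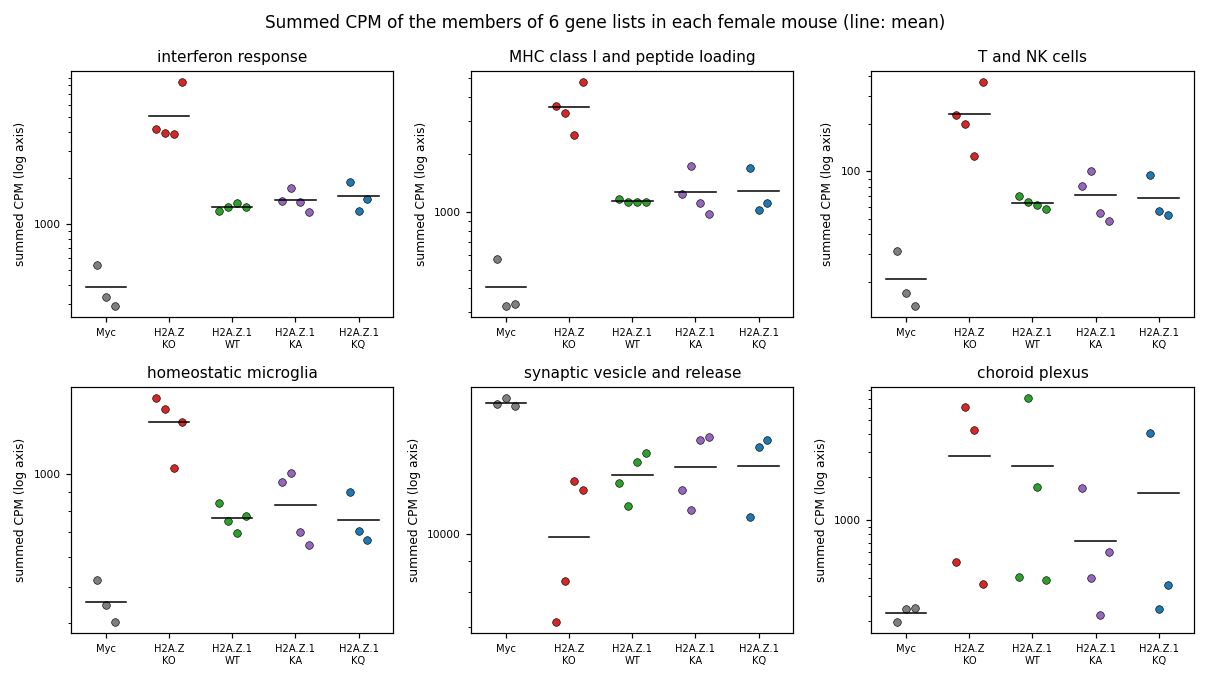
Summed CPM of the members of 6 gene lists in each female mouse on a log axis, 1 point per mouse and a line at the mean. In the lists of interferon response, MHC class I, T and NK cells and homeostatic microglia every H2A.Z.1 KQ mouse lies between the Myc mice and the H2A.Z KO mice. Choroid plexus separates single mice and not KO from KQ mice (361 to 6090 and 242 to 4010 CPM), while all Myc mice (196 to 244 CPM) lie below the KO mice.

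Leaving out 1 mouse changed many of these calls, while the medians of the immune, microglial and glial lists above stayed negative. Without KQ mouse 37, 11 of 53 interferon-response genes, 8 of 21 MHC class I genes, 1 of 20 chemokine genes, 1 of 17 complement genes, 5 of 29 T and NK cell markers, 2 of 24 phagocytic and 8 of 15 homeostatic microglial genes were lower. Without KQ mouse 38 the same lists gave 35, 11, 4, 3, 10, 3 and 9 genes. Over all genes, 549 of 28367 were lower without KQ mouse 37 and 990 of 28373 without KQ mouse 38. Without KO mouse 34, in which the summed interferon list was 8416 CPM against 3827 to 4135 CPM in the other KO mice, 48 interferon-response, 17 MHC class I and 15 T and NK genes were lower. Over all genes, 2069 of 28362 were lower without KO mouse 34. Of the genes named, Irf7, Bst2 and Ciita lost their call without KQ mouse 37, and Oas2, Stat2, Tap2, Trim25 and Mx2 kept theirs without any 1 mouse. The median of the interferon list was -1.48 without mouse 37 and -1.36 without mouse 34, and all 53 members kept a negative fold change in each of these settings. The MHC class II count was 5 without KO mouse 13, 3 without KO mouse 34, 1 without KQ mouse 37 and 2 without KQ mouse 38. The B cell count was 4 without KO mouse 13 or 14, 3 without KQ mouse 38 and 1 without KQ mouse 37, and the astrocyte count 3 without KO mouse 13, KO mouse 14 or KQ mouse 38 and 1 without KQ mouse 37. The phagocytic count also fell to 4 without KO mouse 13 and 6 without KO mouse 14, and the complement count to 7 without KO mouse 13. The reactive glial count was 3 without KO mouse 13 or 14, 2 without KQ mouse 38 and 1 without KQ mouse 37. When the spread was estimated from the 7 mice alone, 33 of 53 interferon-response genes, 4 of 21 MHC class I genes, 5 of 15 homeostatic microglial genes and 1 gene each of the chemokine, T and NK cell and astrocyte lists were lower, and 0 of the MHC class II, complement, phagocytic microglial, B cell and reactive glial lists, with negative medians in all of these lists. Of the genes of these lists named above, Tap2, Ciita, Stat2, Cxcl13, C1qa, Cd3e, Cd4 and Sox10 lost their call in that fit. It also called 1 of 57 potassium channel, 2 of 30 sodium, calcium and HCN channel and 1 of 42 vesicle genes higher and 0 genes of replication or mitosis lower. Over all 23663 genes tested, that fit called 114 higher and 211 lower.

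**Figure D4:**
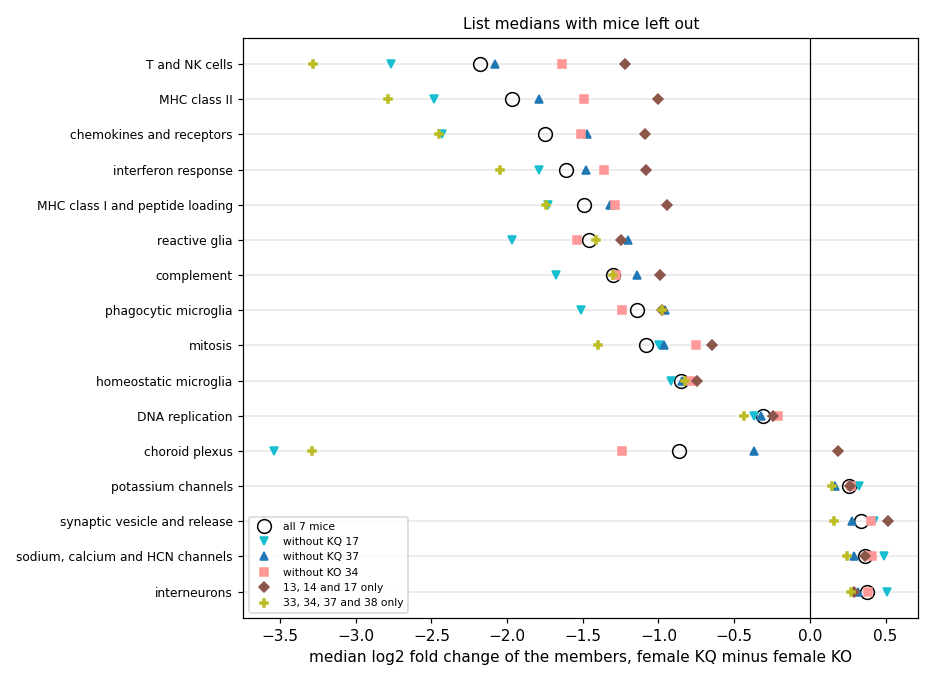
Median log2 fold change (female H2A.Z.1 KQ minus H2A.Z KO) of the members of 16 lists with all 7 mice (open circles) and with mice left out (symbols in the key). Immune lists stay below 0 and neuronal lists above 0 under every setting drawn, and the choroid plexus median moves to the other side of 0 in mice 13, 14 and 17 alone.

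Genes of growth control and cell division were lower in part. Of 27 genes of the p53 response 9 were lower (median log2 fold change -0.45), of 35 genes of DNA replication 11 (median -0.31) and of 30 genes of mitosis 11 (median -1.08). Of all genes tested, 7.63% were lower. Cdkn1a, the p21 inhibitor of cyclin-dependent kinases, stood at 32.1, 26.2, 21.4 and 27.2 CPM in KO and 15, 11.9 and 15.2 CPM in KQ mice (log2 fold change -0.93, SE 0.21, adjusted p = 0.0031). Every KQ mouse was below every KO mouse and above the 5.34 to 6.98 CPM of Myc mice (log2 fold change over Myc 1.24, adjusted p = 0.00205). Mcm3, a subunit of the replicative helicase, was at 6.94 to 12.4 CPM in KO and 3.85 to 6.24 CPM in KQ mice (log2 fold change -1.06, SE 0.23, adjusted p = 0.00252). Cdk1, the mitotic kinase, was at 2.61, 1.92, 2.13 and 5.31 CPM in KO and 0.735, 0.686 and 0.91 CPM in KQ mice (log2 fold change -1.94, SE 0.51, adjusted p = 0.00977), and this call was lost without KQ mouse 37. The mitosis count was 1 without KQ mouse 37, 2 without KO mouse 34, 3 without KQ mouse 17 and 7 without KQ mouse 38. The replication count was 2 without KQ mouse 37, 4 without KO mouse 34, 5 without KQ mouse 38, 6 without KO mouse 13 and 7 without KQ mouse 17. The p53 count was 3 without KQ mouse 37 and 4 without KO mouse 13 or KQ mouse 38. In mice 33, 34, 37 and 38 alone the p53, replication and mitosis counts were 2, 4 and 1, with 1268 genes lower over all genes. Over all genes, 549 of 28367 were lower without KQ mouse 37, 990 of 28373 without KQ mouse 38 and 1285 of 28340 without KO mouse 13. Without KO mouse 34 they were 2069 of 28362, and without KQ mouse 17 they were 2528 of 28359.

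Some genes of neuronal excitability were higher in KQ mice, while most members of these lists did not pass. Of 57 potassium channel genes 15 were higher and 1 lower (median log2 fold change 0.26), of 30 sodium, calcium and HCN channel genes 9 were higher (median 0.36) and of 42 genes of synaptic vesicles and release 12 (median 0.34). Of all genes tested, 5.36% were higher and 7.63% lower. Doc2a, a calcium sensor of spontaneous and asynchronous release, stood at 1.64, 1.58, 3.55 and 2.72 CPM in KO mice 13, 14, 33 and 34 and 8.5, 7.08 and 8.5 CPM in KQ mice 17, 37 and 38. The groups lay far apart, with a log2 change of 1.76 (SE 0.26, adjusted p = 3.21e-05), and Myc mice had 5.3 to 6.26 CPM. Kcnn1, a calcium-activated potassium channel of small conductance, was at 5.06, 6.31, 7.28 and 6.89 CPM in KO and 12.3, 15.6 and 11.8 CPM in KQ mice (log2 fold change 1.05, SE 0.16, adjusted p = 3.52e-05). Kcnc1, a Kv3 channel of fast-spiking neurons, was at 53.9, 58.2, 90.3 and 76.8 CPM in KO and 99.3, 120 and 106 CPM in KQ mice (log2 fold change 0.63, SE 0.12, adjusted p = 0.000838). In Kcnn1 and Kcnc1 each KQ mouse was above each KO mouse, and KO mice 13 and 14 held the lower Kcnc1 values. The potassium channel that was lower was Kcnj10 (log2 fold change -0.59, adjusted p = 0.0112, not called without KO mouse 13 or KQ mouse 37), the Kir4.1 channel of astrocytes. Nalcn, a sodium leak channel, was at 32.1 to 52.6 CPM in KO and 61.5 to 74.3 CPM in KQ mice (log2 fold change 0.68, SE 0.13, adjusted p = 0.000777), and Hcn4, a pacemaker channel, at 0.754 to 1.55 and 2.39 to 2.87 CPM (log2 fold change 1.09, SE 0.23, adjusted p = 0.00187). The calls of Kcnc1, Nalcn and Hcn4 were lost when the spread was estimated from the 7 mice alone, and that of Hcn4 also in mice 13, 14 and 17 alone and in mice 33, 34, 37 and 38 alone.

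Interneuron markers split. Of 19 markers 5 were higher, namely Gad1, Pvalb, Nos1, Kcnc2 and Htr3a, and 1 was lower, the tachykinin gene Tac1 (median log2 fold change 0.38). Pvalb, the calcium buffer of fast-spiking interneurons, stood at 10.1, 9.88, 15 and 12.3 CPM in KO and 23.8, 31 and 17.9 CPM in KQ mice, against 28.9 to 48 CPM in Myc mice. Its log2 fold change over KO was 1.04 (SE 0.23, adjusted p = 0.00329), a call that was lost without KQ mouse 37 and with the spread of the 7 mice alone. Nos1, the neuronal nitric oxide synthase, was at 17, 20.1, 29.5 and 27.2 CPM in KO and 46.9, 48.3 and 42.3 CPM in KQ mice (log2 fold change 0.97, SE 0.22, adjusted p = 0.00346). The call of Tac1 (log2 fold change -1.06, adjusted p = 0.0457) was lost when any 1 of 6 of the 7 mice was left out, and that of Gad1 without KO mouse 13, KO mouse 14, KQ mouse 37 or KQ mouse 38. Among 33 genes of glutamate receptors and their partners 3 were higher, Grik4 and Cacng2 among them, and 2 lower, with Neto2 among them (median 0.19). Without KQ mouse 17 or KO mouse 33 the counts were 7 and 1, and without KQ mouse 37 they were 2 and 0. With all 7 mice, the shares of this list lay near the 5.36% higher and 7.63% lower of all genes. In the scaffolds and adhesion molecules of the postsynapse 2 of 29 were higher, Lrrtm1 and Dlg2, and of 14 GABA-A receptor genes 1, Gabrg3, shares that lay near the 5.36% of all genes. The postsynaptic count was 7 without KQ mouse 17, 6 without KO mouse 33, 4 without KO mouse 34 and 0 without KO mouse 13 or KQ mouse 37. Of the 14 dentate gyrus neuron markers 0 were called in edgeR or in DESeq2, with 2 at an unadjusted p under 0.05, and of 12 CA1 markers Gm10754 was higher and Man1a lower. Snap25, a vesicle fusion protein of all neurons, ran from 1180 to 2180 CPM in KO and 1870 to 2500 CPM in KQ mice (log2 fold change 0.45, SE 0.16, adjusted p = 0.0505), with KO mice 13 and 14 at the lower end. Without KQ mouse 37 the numbers of higher genes were 3 for potassium channels, 6 for sodium, calcium and HCN channels and 3 for vesicle genes. They were 3, 6 and 4 without KO mouse 13, 4, 7 and 6 without KO mouse 14, and 4, 6 and 5 without KQ mouse 38, but 22, 16 and 19 without KO mouse 33 and 17, 16 and 14 without KQ mouse 17. Over all genes, 494 of 28367 were higher without KQ mouse 37 and 1924 of 28391 without KO mouse 33. The number of higher interneuron markers was 2 without KQ mouse 37, 3 without KO mouse 13 or KQ mouse 38 and 8 without KO mouse 33.

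Immediate early genes were not higher in KQ mice. Of 23 genes, 3 were lower, Fosl2, Nptx2 and Gadd45g (median log2 fold change -0.43), and none of these 3 was called without KQ mouse 37. Over all genes tested, 7.63% were lower. Nptx2, a pentraxin that clusters AMPA receptors, stood at 59.2, 54, 48.1 and 54.5 CPM in KO and 15, 20.7 and 34.4 CPM in KQ mice (log2 fold change -1.21, SE 0.30, adjusted p = 0.00741). KQ mice lay below all KO mice and near the 16.2 to 23.8 CPM of Myc mice. Of the other genes that the study names, Arc, Fos, Gadd45b, Fkbp5 and Th did not pass (log2 fold changes -0.37, -0.76, -0.43, 0.10 and 0.65, adjusted p = 0.642, 0.149, 0.0586, 0.728 and 0.407). Kiss1r, the kisspeptin receptor gene, was higher (log2 fold change 0.68, SE 0.18, adjusted p = 0.00848), without its call when KQ mouse 37 or KO mouse 13 was left out. With the spread of the 7 mice alone, Nptx2 and Kiss1r were not called.

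Among 54 genes of Wnt and Notch signalling, 6 were lower and 2 higher (median log2 fold change -0.27). Both shares lay near those of all genes tested, 7.63% lower and 5.36% higher. The lower genes of the list were Dkk2 and Sfrp1, secreted modulators of Wnt, the receptors Fzd7 and Lrp5, and the Notch glycosyltransferases Lfng and Mfng, and the higher ones the Notch ligand Dll4 and the Notch target Hes5. Dkk2 stood at 5.57, 6.52, 3.18 and 2.7 CPM in KO and 1.35, 1.49 and 1.56 CPM in KQ mice, with 1.33 to 1.92 CPM in Myc mice (KQ against KO log2 fold change -1.61, SE 0.34, adjusted p = 0.00213). Mfng was at 5.18 to 6.78 CPM in KO and 3.36 to 4.8 CPM in KQ mice (log2 fold change -0.70, SE 0.20, adjusted p = 0.017), and lost its call without KO mouse 14, KQ mouse 37 or KQ mouse 38. Dkk2, Mfng, Lfng and Lrp5 were not called with the spread of the 7 mice alone. The list count was 2 without KQ mouse 37, 3 without KQ mouse 38, 10 without KQ mouse 17 and 13 without KO mouse 34. No gene of the H2A.Z machinery (20 genes, the exchange complexes SRCAP and p400 and their partners) was called in the main edgeR fit, with 4 at an unadjusted p under 0.05, and DESeq2 called 1, the bromodomain gene Brd2. With RLE size factors, or without KO mouse 33, edgeR also called 1 gene of this list lower. Of 60 histone genes, H1f0, a linker histone of differentiated cells, was higher (86.3 to 98.6 CPM in KO and 124 to 143 CPM in KQ mice, log2 fold change 0.55, SE 0.12, adjusted p = 0.00206) and H4c8 lower. Of 82 cytosolic ribosome genes 4 were lower (Rpl5, Rpl21, Rpl23 and Rps12) and 1 higher (Rps15a), although 79 fold changes were negative (median -0.26), and the lower count was 9 without KQ mouse 17 or KO mouse 33, 7 without KQ mouse 37 and 0 without KQ mouse 38. Of 71 respiratory chain genes 0 were called in edgeR or in DESeq2, with 4 at an unadjusted p under 0.05.

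KQ mice were also set beside Myc mice, which share the KQ or KO mice with the comparison above and so give no independent evidence. KO mice had 5147 genes higher (18.1%) and 4695 lower (16.5%) than Myc mice, and KQ mice 1022 higher (3.59%) and 593 lower (2.08%). These counts rested in part on Myc mouse 32, without which they were 4294 and 3821 for KO and 222 and 256 for KQ. In the interferon list 53 of 53 genes were higher in KO than in Myc mice with or without mouse 32, and 48 in KQ than in Myc mice, or 28 without mouse 32, with a median log2 fold change over Myc of 2.24 or 1.99. In the MHC class I list the counts were 21 for KO, with or without mouse 32, and 15 or 6 for KQ. Of 29 T and NK markers, 3 were higher in KQ than in Myc mice, or 1 without mouse 32. Of 57 potassium channels, 35 were lower in KO than in Myc mice and 4 in KQ than in Myc mice (30 and 0 without mouse 32), and of 42 vesicle genes 29 and 0 (26 and 0).

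The mutants address the role of H2A.Z.1 acetylation, which KQ is meant to mimic and KA to prevent. WT mice had 1524 genes higher (5.36%) and 2610 lower (9.17%) than the same KO mice, and KA mice 1601 higher (5.63%) and 2738 lower (9.62%). Directly compared, 0 genes were called between KQ and WT females (0% of genes tested) and 0 between KQ and KA females (0%) in edgeR. At an unadjusted p under 0.05 there were 754 and 595 genes, and DESeq2 called 10 and 8. Of these, 8 and 7 were immunoglobulin variable genes, and the others were Sag and Tph1 against WT and Tph1 against KA. Tph1, which encodes a tryptophan hydroxylase of the pineal gland, stood at 3.06, 2.08 and 0.286 CPM in KQ mice 17, 37 and 38 and at 0.137 to 0.328 CPM in WT and KA mice. The difference therefore rested on mice 17 and 37, and without mouse 38 Tph1 was the single gene called by edgeR against WT (log2 fold change 3.45, adjusted p = 0.00641) and against KA (3.32, adjusted p = 0.0139). None of the genes named above passed against WT or KA in edgeR. B2m differed by 0.16 (SE 0.31) from WT and -0.05 (SE 0.31) from KA on the log2 scale, Irf7 by 0.29 (SE 0.40) and 0.13 (SE 0.40), Wdr17 by 0.05 (SE 0.10) and 0.07 (SE 0.10), and Doc2a by 0.02 (SE 0.25) and 0.45 (SE 0.25), all with an adjusted p of 1. With errors of this size, equal levels are not shown. Over lists, the median difference of KQ from WT was 0.22 for the interferon response, 0.18 for MHC class I and 0.01 for vesicle genes. For oligodendrocytes and myelin it was -0.45, with all 14 genes lower and 12 at an unadjusted p under 0.05 but none called, and -0.21 against KA, with 0 of 14 at an unadjusted p under 0.05.

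Male KQ and KO mice are other animals and allow a comparison by overlap. Males had 2481 genes higher (8.72%) and 3606 lower (12.7%) in KQ than in KO mice. Of the genes higher in females, 1163 were also higher in males (76.3% of the female and 46.9% of the male list), and of the genes lower in females 1914 were also lower (88.2% and 53.1%). No gene was called in opposite directions, and 98.9% of the higher and 99.2% of the lower female genes had the same sign in males. The interaction of sex with KQ against KO gave 0 genes in edgeR (0%), 769 at an unadjusted p under 0.05 and 6 in DESeq2, all of them immunoglobulin variable genes. The interferon list had a median of -2.21 in males against -1.61 in females and MHC class I -2.02 against -1.49. For single genes the difference between the sexes did not pass the test, at 0.86 (SE 0.52) for Irf7, 0.53 (SE 0.42) for B2m and 0.67 (SE 0.35) for Doc2a on the log2 scale (adjusted p = 1 for each). Drd2 and Tac1 were among the named genes called in females and not in males (male adjusted p = 0.0528 and 0.885), and their interaction did not pass. Sox10, Neto2, Man1a and Pcdhgc3, all lower in KQ females, were not called lower in males either.

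**Figure D5:**
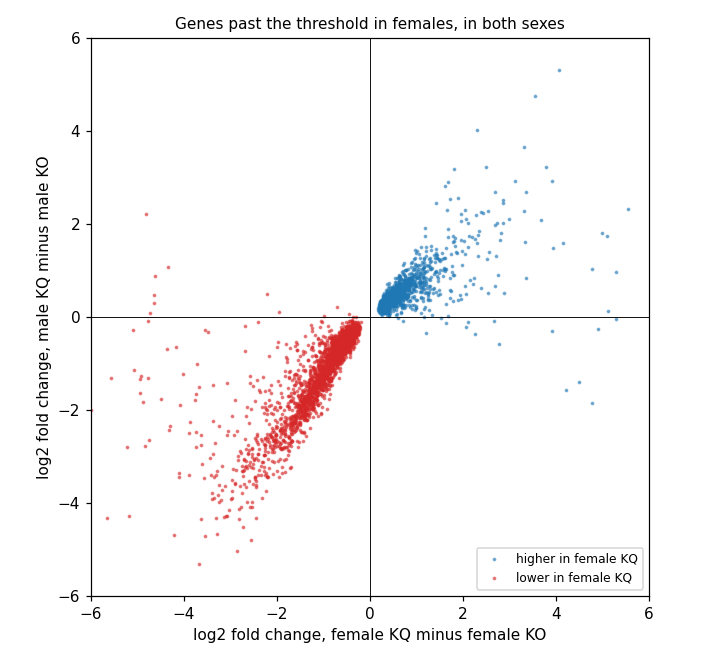
Log2 fold change of KQ over KO in females (x axis) and males (y axis) for the 3694 genes called in females, 1 point per gene, blue for higher and red for lower in female KQ mice. Most points lie in the quadrants of equal sign, and 23 genes lie beyond the axes.

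The mice of the comparison also fall into ranges of sample number. Mice 13, 14 and 17 have numbers up to 20, and mice 33, 34, 37 and 38 have numbers from 21 to 40. The labels do not say what the ranges are. Within the lower range 314 genes were higher (1.1%) and 198 lower (0.696%) in KQ mice, and within the upper range 269 were higher (0.946%) and 1268 lower (4.46%). The mice of the ranges are different animals. Of the genes higher in the lower range, 127 were also higher in the upper range (40.4% of the first and 47.2% of the second list), and of the genes lower in each range 111 were shared (56.1% and 8.75%). Interferon-response genes were lower in 0 of 53 cases in the lower range, with a median log2 fold change of -1.08, and in 51 of 53 in the upper range, with a median of -2.05. For MHC class I the numbers were 1 and 21 of 21, with medians of -0.95 and -1.74. With the range as a covariate in the model of all mice, 1754 genes were higher and 2456 lower. Wdr17, Rnd3, B2m, Sall1, Slc1a3, Doc2a, Kcnn1 and Nos1 were called in each range.

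Choroid plexus tissue differed between single mice. Ttr, the transthyretin of choroid plexus epithelium, stood at 84.3, 3660, 2650 and 35.6 CPM in KO mice 13, 14, 33 and 34 and at 2420, 32 and 69.7 CPM in KQ mice 17, 37 and 38. The high mice were KO 14, KO 33 and KQ 17, the groups overlapped, and the log2 difference was -0.94 (SE 1.6, adjusted p = 0.77). Of 20 choroid plexus markers 0 were called in edgeR or in DESeq2 and 0 had an unadjusted p under 0.05, and their summed level was 361.4 to 6094 CPM in KO, 242.3 to 4015 CPM in KQ and 196 to 244.3 CPM in Myc mice. Without mice 14, 33 and 17, which had over 1000 CPM of Ttr, 1112 genes were higher and 2389 lower in KQ mice, with 51 of 53 interferon-response and 21 of 21 MHC class I genes lower and 11 of 57 potassium channels and 12 of 42 vesicle genes higher. Arhgap36, a gene with the largest positive fold change under the naming rule (log2 fold change 5.09, adjusted p = 0.0128), had 81.6 CPM in KQ mouse 17 and at most 1.54 CPM in the other 6 mice, and was not called without that mouse.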

How the data were processed

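For 40 mice, raw counts per gene were deposited that the authors had made with featureCounts from reads aligned to GRCm39, and also a table of normalized signal, divided by size factors from DESeq2 1.38.3, which was not used here. Neither file holds statistical comparisons. Of 40853 genes, 28449 had 20 or more counts summed over all mice and entered the test. After TMM scaling, edgeR 4.0.16 (R 4.3.3; estimateDisp, robust glmQLFit, glmQLFTest) was fitted with a mean per group of sex and virus (10 groups), as all mice then share 1 estimate of spread. Groups came from the sample labels and columns were matched by sample number. Between 2 mice of the KO or KQ group, counts differed by 15.8 to 64.5 times counting error (chi-square per degree of freedom), so all mice were counted as separate samples. The fit was tested on simulated data with known fold changes. Alternatives were DESeq2 1.42.0, RLE size factors, filterByExpr, no filter, only the groups compared, no robust estimation, the sample-number range as a covariate or alone, and leaving out each mouse. Leaving out mice with over 1000 CPM of Ttr, or Myc mouse 32, was chosen after seeing the data.

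Genes are named if the study names them, if they are among the 10 largest fold changes per direction (adjusted p under 0.05, mean of at least 1 CPM, groups not overlapping), if they are among the 4 smallest p-values or the defining markers of a list, or if they have 1 of the 5 smallest p-values per direction in another comparison. Counts of 5 or fewer in the comparison of KQ with KO are named, apart from genes not reported here. Other genes, among them Cd4, Irf7, Ifi27, Fzd7, Dll4, Hes5, Tph1 and Ttr, were picked with their values in view. The comparison, members and lists were chosen with earlier results of these data known, so no list is independent evidence. Upstream sequences and gene positions come from the GENCODE vM39 annotation of GRCm39.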

Additional observations from a re-analysis of the deposited data

Results flagged for a closer look

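In the group of 4 female KO mice, the highest or lowest mouse was set against the range of its group by Dixon's limit for 4 mice, which chance passes in about 1 of 20 groups. Of 138 values tested, 14 passed, 12 of them at mouse 34. In that mouse the value was the highest of the group for Tap1 (126 CPM), Ciita (19 CPM), Bst2 (128 CPM), Ifit1 (199 CPM), Cxcl13 (689 CPM), Cxcl10 (137 CPM), Cxcl11 (27.3 CPM), Ccl7 (12.7 CPM), Cd8a (27.5 CPM) and Nkg7 (11.9 CPM). The summed lists of interferon response (8416 CPM) and of chemokines and receptors (1420 CPM) also had their highest value there. These genes belong to overlapping lists and are not independent of each other. The lowest value of the group was in mouse 33 for Stat3 (74.1 CPM) and Mfng (5.18 CPM).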

How the results depend on the processing

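No called gene was called in the opposite direction under any alternative. With DESeq2 1703 genes were higher and 2878 lower, with RLE size factors 1302 and 2307, which moved the median of all genes by -0.0194 on the log2 scale. Only the 7 mice of the comparison gave 114 and 211 (of 23663 genes tested), mice 13, 14 and 17 alone 314 and 198, mice 33, 34, 37 and 38 alone 269 and 1268, and a log2 fold change past 1 in either direction 257 and 1033. Leaving out 1 mouse gave 494 to 1924 higher and 549 to 2707 lower genes. Between KQ and WT and between KQ and KA 0 to 1 genes were called without 1 mouse, and DESeq2 called 10 and 8. DESeq2 called 6 for the sex interaction, where leaving out 1 mouse always gave 0. Without Myc mouse 32, 222 genes were higher and 256 lower in KQ than in Myc mice. Fkbp5 turned to -0.0153 without KQ mouse 37 (-0.0153 to 0.265 without 1 mouse) and -0.138 in mice 13, 14 and 17, Arc to 0.0494 without the mice with high Ttr, and Ttr to 0.371 in mice 13, 14 and 17, none of them called. The causes were not tested. No paired analysis was possible because each sample number belongs to 1 mouse and the groups share none. The groups held 3 KQ and 4 KO mice, and the parts of mouse number and sequencing depth in the error were not tested.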

Other observations

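Clustered protocadherins, adhesion molecules that give neurons distinct surfaces, were higher in KQ than in KO mice in 6 of 58 cases and lower in 1, Pcdhgc3, with a median log2 fold change of 0.17, and 15 were higher in males. Over all genes tested, 5.36% were higher and 7.63% lower in females, and 8.72% higher in males. Pcdhga4 stood at 2.69, 4.22, 4.23 and 4.82 CPM in KO and 5.98, 6.12 and 8.01 CPM in KQ mice (log2 fold change 0.75, SE 0.15, edgeR adjusted p = 0.00146). The genes of a cluster share exons and their reads may be split between them, and the count was 2 without KO mouse 13, KO mouse 14 or KQ mouse 38, 3 without KQ mouse 37 and 0 with the spread of the 7 mice alone, where Pcdhga4 and Grik4 were not called. Among 42 collagen genes 1 was higher, Col6a5, and 1 lower, Col4a6, and among 15 genes of the neuronal injury response Klf6 and Plaur were lower. Among 15 markers of CA2 and CA3 neurons Grik4 and Elavl2 were higher and Fgf2 lower. Without KQ mouse 17 the lower collagens were 4 and the lower injury genes 4, and without KQ mouse 37 both were 0. Without KO mouse 34 the higher CA2 and CA3 markers were 4, and without KO mouse 13 or KQ mouse 37 they were 1. Grik4, a kainate receptor subunit, was at 17.1 to 31.4 CPM in KO and 36.7 to 48.1 CPM in KQ mice (log2 fold change 0.86, SE 0.18, edgeR adjusted p = 0.00184).

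The photoreceptor and pineal genes Crx and Rbp3, chosen after their values were seen, followed Tph1 in being highest in KQ mice 17 and 37. Crx had 0.906, 0.539 and 0.052 CPM in KQ mice 17, 37 and 38 and at most 0.242 CPM in KO mice, and Rbp3 had 2.55, 2.45 and 0.468 CPM and at most 0.862 CPM. Neither difference from KO passed the edgeR test (adjusted p = 0.134 and 0.334).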
